A study of Mus musculus with 20 samples.

Results

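Grm2, Grm3, Grm4, Grm5, Grm6, Grm7 and Grm8 are metabotropic glutamate receptor genes, 7 of the 21631 protein-coding genes in the annotation used. They were taken by name and not by any measured value, and all 7 were found. CUT&RUN, in which an antibody directs the release of the DNA it binds in intact nuclei, was carried out on nuclei sorted from mouse whole brain. The 20 libraries fall into 10 groups of 2, made of 5 antibodies (H3K4me3, EGR1, H3K27ac, H3K4me1 and H3K27me3) applied to excitatory and to inhibitory neurons. Both neuron types came from animals of 8 weeks with the genotype Sun1 f/f | Emx1Cre (+), so no group lacks the Cre. Emx1 drives Cre in the dorsal forebrain, and Sun1 encodes a nuclear envelope protein. The gate by which the sort told the neuron types apart was not known here, and nothing states that the 2 libraries of a group are separate animals. The p-values below therefore measure only the spread between these libraries.

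Metabotropic glutamate receptors are G protein-coupled receptors that tune synaptic transmission slowly, beside the fast glutamate-gated channels. The group I receptor encoded by Grm5 couples to Gq and phospholipase C and sits mostly behind the synapse. Group II (Grm2, Grm3) and group III (Grm4, Grm6, Grm7, Grm8) couple to Gi/o and can inhibit adenylyl cyclase. Apart from the Grm6 product, they act largely as presynaptic brakes on release. Grm3 and Grm5 are also expressed in astrocytes, Grm4 is prominent in cerebellar granule cells, and the Grm6 product mediates the light response of retinal ON bipolar cells. Of the marks, H3K4me3 lies at promoters, H3K4me1 at enhancers and over active genes, H3K27ac at both kinds of element when active, and H3K27me3 in Polycomb-repressed chromatin. EGR1 is an activity-induced zinc-finger transcription factor.

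The 7 genes differ greatly in size. On mm10, Grm2 spans 11.6 kb (chr9:106644534-106656109) and Grm6 15.8 kb (chr11:50850369-50866208), below the median of 17.3 kb over all protein-coding genes. Grm4 spans 91.4 kb (chr17:27422387-27513826), Grm3 240.1 kb (chr5:9485236-9725352) and Grm5 551.1 kb (chr7:87583981-88135063). The longest are Grm8 with 860.0 kb (chr6:27275121-28135146) and Grm7 with 921.9 kb (chr6:110645349-111567230). Every value below is the percent of a window that lay in the authors' called peaks: the gene with 5 kb on each side (the body window), or the 4 kb centred on either gene end (the end windows). Of other protein-coding genes, Tex264 reaches 2364 bases into the body window of Grm2 and Elapor2 4428 bases into that of Grm3. Elapor2 also reaches into the lower end window of Grm3. Peaks in these stretches cannot be told apart from those of the receptor gene.

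The starts of Grm2, Grm3, Grm7 and Grm8 are shown because they had EGR1 or H3K4me3 peaks in at least 1 library. Grm6 also had such peaks, but its promoter bases lie inside the annotated gene. The sequences are the bases before the first annotated base of each gene, from RefSeq on GRCm38.p6 (the assembly of mm10), written 5′ to 3′ on the gene's own strand. Capitals mark the bases that lay in EGR1 peaks of both excitatory libraries.
Grm2 (chr9:106656110-106656359, minus strand): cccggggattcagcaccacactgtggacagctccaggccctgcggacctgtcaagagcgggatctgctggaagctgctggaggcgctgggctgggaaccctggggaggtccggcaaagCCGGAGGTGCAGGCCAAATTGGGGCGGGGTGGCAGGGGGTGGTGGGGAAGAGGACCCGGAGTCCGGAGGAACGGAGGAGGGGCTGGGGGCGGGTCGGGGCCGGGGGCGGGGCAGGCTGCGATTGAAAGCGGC
Grm3 (chr5:9725353-9725602, minus strand): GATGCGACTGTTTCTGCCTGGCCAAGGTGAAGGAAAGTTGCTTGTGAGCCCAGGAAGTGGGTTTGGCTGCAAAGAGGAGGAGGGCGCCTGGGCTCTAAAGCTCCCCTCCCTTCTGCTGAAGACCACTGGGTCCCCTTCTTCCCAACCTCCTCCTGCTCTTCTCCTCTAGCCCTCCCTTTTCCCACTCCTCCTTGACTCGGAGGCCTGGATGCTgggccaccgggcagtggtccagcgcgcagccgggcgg
Grm7 (chr6:110645262-110645348, plus strand): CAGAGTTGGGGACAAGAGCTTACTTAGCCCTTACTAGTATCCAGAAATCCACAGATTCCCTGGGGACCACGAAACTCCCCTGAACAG
Grm8 (chr6:28135147-28135396, minus strand): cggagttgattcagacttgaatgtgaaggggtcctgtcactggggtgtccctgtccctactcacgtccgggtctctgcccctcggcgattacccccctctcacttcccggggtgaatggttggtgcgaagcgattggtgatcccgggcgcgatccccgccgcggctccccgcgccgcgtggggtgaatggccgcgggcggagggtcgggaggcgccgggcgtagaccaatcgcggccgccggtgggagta
At Grm2, 132 of the 250 bases were in EGR1 peaks of both excitatory libraries and 0 in peaks of both inhibitory libraries. At Grm3 these counts were 213 and 96 of 250 bases, and at Grm7 87 and 0 of the 87 bases shown. In the full 250 bases before the 2 RefSeq starts of Grm7, however, all 250 were in EGR1 peaks of both excitatory libraries and 152 or 238 in peaks of both inhibitory ones, and the EGR1 region there (chr6:110645186-110646624) had peaks in all 4 libraries. The EGR1 region that reaches into the Grm2 bases shown (chr9:106655533-106656285) also had peaks in all 4 libraries, and its inhibitory peaks lay inside the gene. None of the Grm8 bases shown was in both libraries of either type. At a further RefSeq start of Grm8 that lies inside the gene, however, the 250 bases before it (chr6:28134422-28134671) were all in EGR1 peaks of both excitatory libraries. Of these bases 47.2% lay in EGR1 peaks of inhibitory replicate 1 and 0% in those of inhibitory replicate 2, so 0 were shared by both inhibitory libraries.

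The promoter table holds 8 starts of Grm2, Grm3, Grm6, Grm7 and Grm8. Both strands of the 250 bases before each start were searched for the EGR1 motif forms GCGTGGGCG and GCGGGGGCG and for the cyclic AMP response element TGACGTCA. None of the 8 member windows held any of the 3, against 0.536%, 2.57% and 1.55% of all 32851 promoters. In windows that run past the start to 300 bases, Grm3 held GCGGGGGCG across its start, and 2.91% of all promoters held this form. The Grm2 and Grm8 bases were rich in G and C, with 71.2% and 68.4%, and Grm8 held 29 CpG dinucleotides, against medians of 52.4% and 6 over all promoters.

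The files are peak lists without read counts, so the depth of every library is unknown and no counting error can be given. The libraries held 49899 to 321846 peaks. A q-value under 0.05 in the authors' lists was reached by 90.7% to 98.1% of EGR1 peaks and by 23.9% to 47.6% of H3K4me3 peaks. It was reached by 0.00870% and 0.219% of the 321846 and 262776 H3K4me1 peaks in excitatory libraries, against 1.43% and 9.61% of the 209223 and 139982 in inhibitory ones. At most 0.00990% of H3K27me3 peaks reached it, and no H3K27me3 peak in the body window of any of the 7 genes reached it. The excitatory H3K27ac libraries stood apart from the other libraries of that antibody, with 2.57% and 4.94% of peaks at that q-value against 31.8% and 35.1% in the inhibitory ones. Their peaks overlapped each other with a Jaccard index of 0.113, against 0.315 for the inhibitory H3K27ac libraries. The excitatory libraries overlapped the inhibitory ones at 0.114 to 0.132, no less than they overlapped each other. For H3K4me3 the excitatory libraries overlapped each other at 0.313 and the inhibitory ones each other at 0.415. Each excitatory H3K4me3 library overlapped inhibitory replicate 1 less, at 0.274, but inhibitory replicate 2 more, at 0.334 and 0.332. Some defining markers went against the labels: Tbr1, a gene of cortical excitatory neurons, had 0% and 12.0% H3K4me3 end coverage in excitatory libraries and 34.3% and 35.9% in inhibitory ones, and Gad1, a gene of GABA synthesis, had 21.2% and 25.4% H3K4me1 body coverage in excitatory libraries and 4.42% and 7.40% in inhibitory ones. Of the 17 excitatory forebrain markers tested for H3K4me3 at the ends, 9 had more in excitatory and 8 in inhibitory neurons. Tbr1 alone passed, against 3.02% of all genes. Of the 18 inhibitory neuron markers tested for H3K4me1, 9 had more in either type, and Gad1 rose and Sp8 fell, against 4.06% of all genes that passed. EGR1 body coverage of the excitatory forebrain markers had 5 that rose and 1 that fell of 18 tested, and that of the inhibitory neuron markers 0 that rose and 4 that fell of 14. Over all genes 2.63% passed for EGR1 over the bodies, in either direction.

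Differences are given in percentage points, excitatory minus inhibitory, after quantile normalization, tested with limma over all genes of an antibody, with Benjamini-Hochberg adjusted p-values and a threshold of 0.05. The levels given per library are not normalized. The main window is the body for H3K4me1, H3K27me3 and H3K27ac and the gene ends for H3K4me3 and EGR1. Across these 5 comparisons, 2 of the 7 receptor genes passed for H3K4me1 and none for the other antibodies.

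**Figure D1:**
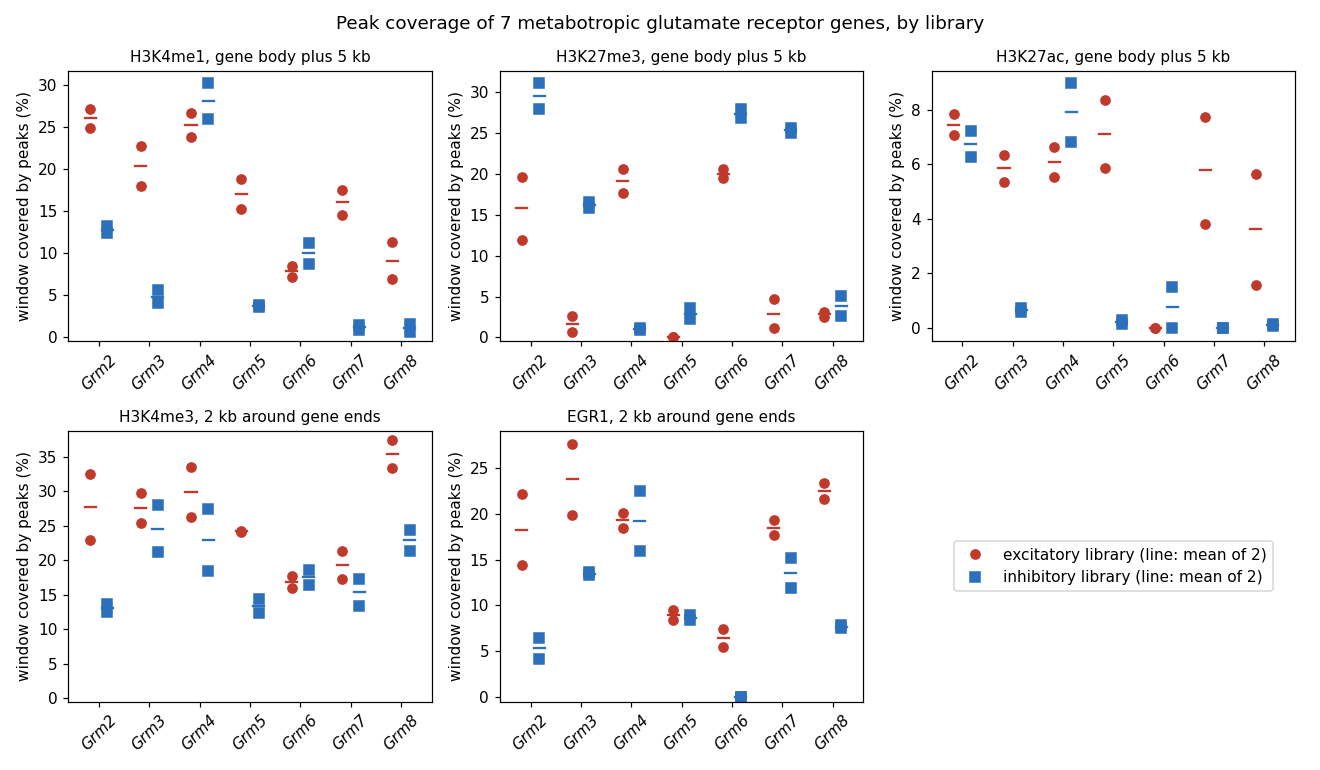
Percent of the main window of each receptor gene covered by peaks (y axis), by gene (x axis) and antibody (panels), with 1 point per library, excitatory libraries left of inhibitory ones and a line at the mean of 2. The excitatory H3K4me1 points of Grm3, Grm5 and Grm7 lie well above the inhibitory ones, and H3K27me3 shows Grm4 and Grm7 separated in opposite directions.

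H3K4me1 covered more of most of the large receptor genes in excitatory neurons. Grm7 and Grm3 rose, and Grm2, Grm5 and Grm8 also had both excitatory libraries above both inhibitory ones without passing the test. The share of genes called was 4.06% over the 18017 tested (2.53% higher in excitatory neurons and 1.53% in inhibitory ones), and 25.9% had an unadjusted p below 0.05, as 6 of the 7 receptor genes did. Both excitatory libraries lay above both inhibitory ones at 5 of the 7 genes, against 39.3% of all genes tested, and below them at 1, against 15.3%. The median difference was 10.1 points over the 7 genes and -0.34 over all genes.

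For the group I gene Grm5, H3K4me1 peaks covered 15.3% and 18.8% of the body window in excitatory libraries and 3.85% and 3.56% in inhibitory libraries. The groups were far apart, with a difference of 10.1 points ± 2.04 (SE; limma adjusted p = 0.0564). Of the group II genes, Grm3 had 17.9% and 22.8% in excitatory libraries and 5.62% and 4.01% in inhibitory libraries. It rose by 12.5 points ± 2.21 (SE; limma adjusted p = 0.0459). Grm2 had 27.2% and 24.9% against 13.2% and 12.3%, a difference of 11.7 points ± 3.47 (limma adjusted p = 0.110). Astrocytes also express Grm3 and Grm5, and the 12 astrocyte markers had summed H3K4me1 coverage of 194.6 and 214.3 points in excitatory and 171.1 and 172.5 in inhibitory libraries. Of these markers 4 had a positive difference and 0 passed (limma), none was at 0 in both libraries of a type, and their part in the Grm3 and Grm5 values was not tested.

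Among the group III genes the direction varied. Grm7, the presynaptic receptor gene with the longest locus, had 14.5% and 17.5% in excitatory libraries and 1.48% and 0.893% in inhibitory libraries. It rose by 12.1 points ± 1.75 (SE; limma adjusted p = 0.0401). Grm8 had 6.86% and 11.3% in excitatory libraries against 1.58% and 0.653% in inhibitory ones (5.25 points ± 1.63, limma adjusted p = 0.118). Grm4 had 23.8% and 26.6% in excitatory and 25.9% and 30.2% in inhibitory libraries, and its groups overlapped (-2.71 points, limma adjusted p = 0.623). Grm6 was the 1 gene with both inhibitory libraries on top, at 8.46% and 7.19% in excitatory and 11.2% and 8.75% in inhibitory libraries (-5.36 points ± 1.85, limma adjusted p = 0.144).

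The H3K4me1 calls of Grm7 and Grm3 held without quantile normalization (limma adjusted p = 0.0297 and 0.0347) and were lost under the other settings tried. On the log2 scale the adjusted p-values were 0.0531 for Grm7 and 0.0541 for Grm3, and without the coverage filter 0.124 and 0.127. With peaks of a -log10 p of at least 3 alone, the differences were 1.71 points for Grm7 (limma adjusted p = 0.325) and 0.371 for Grm3 (limma adjusted p = 0.625). Leaving out any 1 of them left 0 genes called genome-wide (2942 to 4395 genes at an unadjusted p below 0.05), while the difference of Grm7 stayed between 11.3 and 13.03 points and that of Grm3 between 11.4 and 14.2. With an equal number of the strongest peaks from each library the count was also 0 (3911 at an unadjusted p below 0.05), with 8.50 points for Grm7 and 9.36 for Grm3. No H3K4me1 peak of an excitatory library in the 7 body windows reached a q-value under 0.05, and of the inhibitory peaks 2 did, both in Grm3. The part of the weak excitatory peaks and of their larger number in the result was not tested.

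At the gene ends the H3K4me1 picture was different from that over the bodies. Grm8 had 13.7% and 14.3% in excitatory libraries and 34.6% and 28.3% in inhibitory libraries, the reverse of its body (-20.3 points ± 7.23, limma adjusted p = 0.138). The values differed at its upper end, where it starts, with 27.3% and 28.6% of the 4 kb at its upper end covered in excitatory libraries against 69.2% and 56.6% in inhibitory ones, and 0% at its other end in all 4. The ends of Grm7 (-11.4 points) and Grm3 (-6.67 points) also had negative differences, with overlapping libraries. At the lower end of Grm3, the excitatory peaks lay inside Elapor2, with 24.8% and 34.1% of the 4 kb covered, against 0% in both inhibitory libraries. The median over the 7 genes was -6.67 points at the ends, against -0.20 over all genes. None of the 7 passed at the ends, where 1.31% of all genes did, and by limma 1 had an unadjusted p below 0.05, against 18.7%. Both excitatory libraries were on top at 1 gene, Grm4 (31.7% of all genes), and both inhibitory ones at 2, Grm6 and Grm8 (16.7%).

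**Figure D2:**
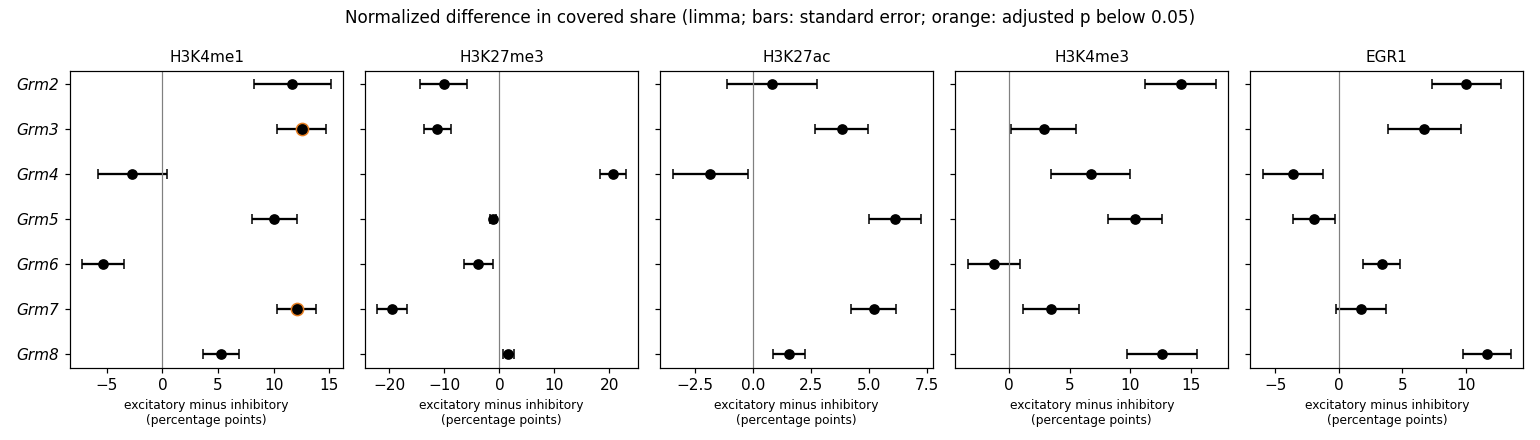
Difference in normalized coverage, excitatory minus inhibitory (x axis, percentage points of the main window, with bars for the standard error of the limma fit), for each receptor gene (y axis) and antibody (panels). Orange rings mark Grm3 and Grm7 for H3K4me1, the 2 genes past an adjusted p of 0.05, and Grm6 has no point for H3K27ac because it was not tested.

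H3K27me3 divided the family. Its peaks covered a large share of Grm7 and Grm3 in inhibitory libraries and little in excitatory ones, and the opposite held at Grm4. None of the 7 genes and none of the 15438 tested passed an adjusted p of 0.05 in limma (0%), while 28.9% of all genes and 3 of the 7 receptor genes had an unadjusted p below 0.05. Both inhibitory libraries lay above both excitatory ones at 5 of the 7 genes, against 48.7% of all genes, and the reverse held at 1, against 14.2%. The median difference was -3.82 points over the 7 genes and 0.0498 over all genes.

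Grm4 had 17.7% and 20.6% of its body window in H3K27me3 peaks in excitatory libraries and 1.16% and 0.884% in inhibitory libraries. The difference was 20.6 points ± 2.36 (SE; limma adjusted p = 0.0555), and on a log2 scale it was 3.86 with an adjusted p of 0.0424. Grm7 stood at 1.09% and 4.67% in excitatory libraries and 25.0% and 25.7% in inhibitory libraries. Its difference of -19.5 points ± 2.67 (SE; limma adjusted p = 0.0555) went with 19 and 59 peaks in excitatory against 228 and 229 peaks in inhibitory libraries. With peaks of a -log10 p of at least 3 alone, 357 genes could be tested and the difference of Grm7 was 0.683 points.

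Grm3 had 0.616% and 2.60% in excitatory libraries and 15.8% and 16.6% in inhibitory libraries (-11.3 points ± 2.40, limma adjusted p = 0.0698). Grm5 showed the same order at a low level, with 0% and 0.0993% against 3.54% and 2.27% (limma adjusted p = 0.258). Both short genes were marked in both types. Grm6 had 20.6% and 19.5% in excitatory and 26.8% and 27.96% in inhibitory libraries (limma adjusted p = 0.415), and Grm2 19.6% and 12.0% against 27.9% and 31.1% (-10.1 points ± 4.24, limma adjusted p = 0.212). Grm8 had low and overlapping coverage, 3.10% and 2.51% in excitatory and 5.12% and 2.63% in inhibitory libraries (1.64 points, and -1.07 without quantile normalization).

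**Figure D3:**
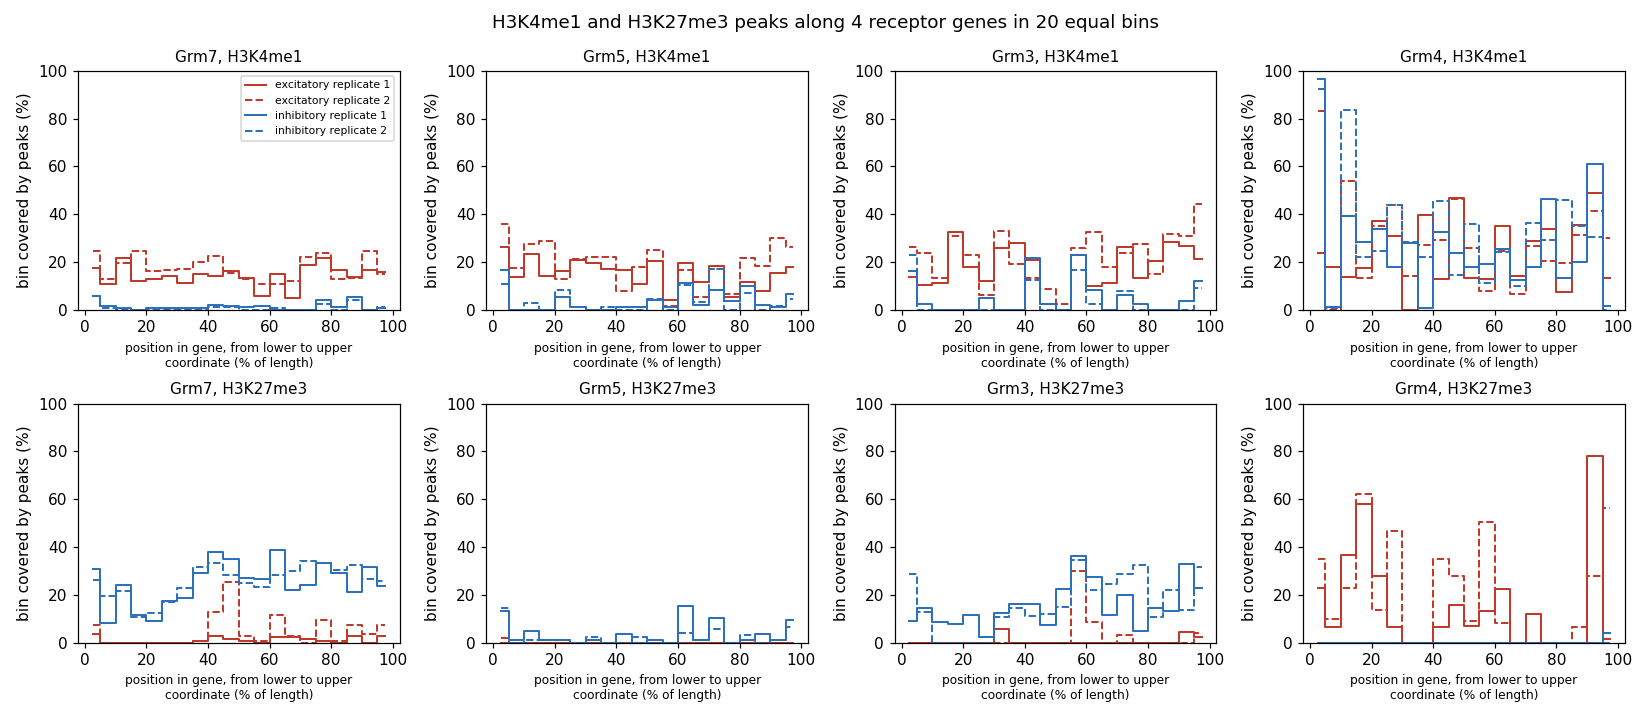
Percent of each of 20 equal bins covered by H3K4me1 (upper panels) or H3K27me3 peaks (lower panels) along Grm7, Grm5, Grm3 and Grm4 (x axis, position from the lower to the upper coordinate in percent of the gene), with 1 line per library. In Grm7 the excitatory libraries lie above the inhibitory ones in all 20 bins for H3K4me1 and below them in all 20 for H3K27me3, while in Grm4 they lie above in 12 bins for H3K27me3.

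Along Grm7, both excitatory libraries had more H3K4me1 than both inhibitory ones in 20 of 20 equal bins, and less H3K27me3 in 20 of 20. The corresponding counts were 20 and 11 bins in Grm5, 16 and 16 in Grm3, and 19 and 4 in Grm8. Grm4 had 4 bins with excitatory libraries on top and 4 with inhibitory libraries on top for H3K4me1, and 12 with excitatory libraries on top for H3K27me3. The Grm7 differences thus ran along the whole locus. Neighbouring bins share broad peaks and are not independent.

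H3K27ac was almost absent from the long receptor genes in inhibitory libraries. Grm7 had 3.82% and 7.74% of its window covered in excitatory libraries, from 87 and 179 peaks, and 0% in both inhibitory libraries, from 0 peaks. Grm5 had 5.85% and 8.37% in excitatory against 0.268% and 0.142% in inhibitory libraries, and Grm3 5.37% and 6.35% against 0.728% and 0.565%. Limma gave differences of 5.19 points ± 0.978 for Grm7 (adjusted p = 0.144), 6.12 ± 1.11 for Grm5 (adjusted p = 0.144) and 3.81 ± 1.15 for Grm3 (adjusted p = 0.194).

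No gene of 16654 passed for H3K27ac (0%), while 18.2% had an unadjusted p below 0.05, among them Grm3, Grm5 and Grm7. Both excitatory libraries were on top at 4 of the 7 genes, against 24.9% of all genes, and both inhibitory ones at 1, Grm4, against 26.2%. Grm4 had 5.52% and 6.62% in excitatory and 6.83% and 8.98% in inhibitory libraries. Grm8 had 1.56% and 5.65% against 0.146% and 0.0649% (limma adjusted p = 0.325), and Grm2 overlapped, with 7.83% and 7.09% against 6.26% and 7.23%. Grm6 had a peak in 1 of the 4 libraries and was not tested. The excitatory H3K27ac libraries are the pair with few peaks at a low q-value, and the part of this in the result was not tested. The inhibitory neuron markers moved the same way as the long receptor genes. Of 13 tested over the bodies 12 had more H3K27ac in excitatory neurons, with a median difference of 4.2997 points against -0.0832 over all genes and 0 that passed (limma). Their summed coverage over 18 genes was 73.5 and 113.3 points in excitatory and 15.8 and 18.4 in inhibitory libraries. Of the 18, 1 (Sp8) was at 0 in both excitatory libraries and 10 in both inhibitory ones, among them Slc32a1, Dlx1, Dlx2 and Sst, and their part in the result was not tested. At the gene ends both excitatory libraries were on top at Grm3, Grm5 and Grm7, 3 of the 7 (15.8% of all genes), and both inhibitory ones at 0 (34%). Grm7 had 15.6% and 16.7% there in excitatory libraries and 0% in both inhibitory ones, a difference of 17.1 points ± 3.87 (limma adjusted p = 0.243). No gene passed at the ends either (0%), and 3 of the 7 had an unadjusted p below 0.05, against 13.7% of all genes. Without excitatory replicate 1 limma called 1274 genes over the bodies, among them Grm5 (7.25 points, adjusted p = 0.0421).

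H3K4me3 at the gene ends was present in every library at all 7 genes. Its coverage was higher in both excitatory libraries at Grm2, Grm5 and Grm8 and did not separate the types at the other 4 genes. The authors' fold enrichment went the other way at these 3 genes, and it was also higher in inhibitory libraries at Grm3 and Grm7. The highest fold of a peak at the ends of Grm2 was 3.43 and 3.51 in excitatory and 6.54 and 9.14 in inhibitory libraries. For Grm5 it was 3.04 and 3.57 against 6.63 and 4.96, and for Grm8 3.70 and 4.53 against 7.08 and 6.38. At Grm3, where coverage overlapped, it was 4.92 and 4.37 against 6.42 and 8.16, and at Grm7 2.97 and 3.01 against 3.69 and 4.96. At Grm4 the excitatory libraries had the higher fold, 3.97 and 4.21 against 3.07 and 3.95, and at Grm6 the libraries overlapped. Fold enrichment was not tested, and its order over all genes was not computed. Grm8 had 37.5% and 33.4% of its end windows covered in excitatory libraries and 21.4% and 24.4% in inhibitory libraries (12.6 points ± 2.90, limma adjusted p = 0.0775). Grm2 had 22.95% and 32.5% against 13.7% and 12.55% (14.2 points ± 2.91, limma adjusted p = 0.0580). Grm5 had 24.2% and 24.1% against 12.4% and 14.3% (10.4 points ± 2.21, limma adjusted p = 0.0626).

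None of the 7 passed for H3K4me3, against 3.02% of the 15685 genes tested (1.8% higher in excitatory neurons and 1.22% in inhibitory ones), and 3 of the 7 had an unadjusted p below 0.05, as did 17.6% of all genes. Both excitatory libraries were on top at 3 of the 7, against 25.6% of all genes, and both inhibitory ones at 0, against 20.3%. The median difference was 6.75 points over the 7 genes and -0.13 over all genes. Grm3, Grm4, Grm6 and Grm7 had overlapping libraries, with differences from -1.26 points (Grm6) to 6.75 points (Grm4).

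EGR1 peaks covered more of the ends of Grm8 and Grm2 in excitatory libraries. Grm8 had 21.6% and 23.3% in excitatory libraries and 7.49% and 7.91% in inhibitory libraries (11.7 points ± 1.88, limma adjusted p = 0.110). Grm2 had 22.1% and 14.4% against 4.13% and 6.49% (10.04 points ± 2.69, limma adjusted p = 0.178). Grm6 had 7.41% and 5.44% in excitatory libraries and 0% in both inhibitory ones (limma adjusted p = 0.356), from peaks of 593 and 435 bases near its start. Grm3 had 19.85% and 27.65% against 13.3% and 13.6%, with the same adjusted p, 0.356. Its value in excitatory replicate 2 includes a peak inside Elapor2, which covers 6.9% of the 4 kb at the lower end.

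No gene of 14310 passed for EGR1 at the ends (0%), and 14.7% had an unadjusted p below 0.05, as did Grm2 and Grm8. Both excitatory libraries lay above both inhibitory ones at 5 of the 7 genes, against 47.4% of all genes. Both inhibitory libraries were on top at 0, against 6.04%. The excitatory libraries also held more EGR1 peaks genome-wide, 93858 and 98534 against 49899 and 62412, and the part of this in the shares was not tested. The median difference was 3.36 points over the 7 genes and -0.43 over all genes. Grm7 had 19.3% and 17.7% against 11.85% and 15.2% (limma adjusted p = 0.718), and Grm4 and Grm5 overlapped, with differences of -3.62 and -1.95 points that were 0.0375 and 0.3125 without quantile normalization. At Grm2 the far end of the gene also carried EGR1 peaks, with 20.3% and 14.9% of its 4 kb covered in excitatory libraries and 0% in both inhibitory ones. Around the start of Grm2 the types lay closer, at 23.975% and 13.825% in excitatory and 8.25% and 12.975% in inhibitory libraries.

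Over the body windows 6 of the 7 genes had more EGR1 coverage in both excitatory libraries, against 63.3% of all genes. The exception was Grm4, with 4.09% and 3.56% in excitatory and 4.17% and 5.60% in inhibitory libraries, an order found at 3.71% of all genes. Its difference was -2.80 points ± 0.648 (limma adjusted p = 0.0887). After quantile normalization the differences of the other 6 were uneven. They were 5.38 points at Grm2, 1.47 at Grm3 and 1.13 at Grm6, but 0.0523 at Grm5, 0.0679 at Grm7 and -0.0623 at Grm8. None of the 7 passed over the body, where 2.63% of genes did, and 4 of the 7 had an unadjusted p below 0.05, against 25.3%.

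At the marked end of each gene the bases in H3K4me3 and H3K27me3 peaks of both libraries were compared. Of the 4 kb around the start of Grm3, H3K27me3 covered 0% and 17.85% in excitatory libraries and 97.75% and 100% in inhibitory libraries. The lower end of Grm5 had 0% in both excitatory libraries and 58.2% and 69.4% in inhibitory ones. At the start of Grm6 coverage was high in both types, at 99.3% and 79.1% in excitatory and 100% in both inhibitory libraries. Over both ends together, both inhibitory libraries were on top at 6 of the 7 genes (39.8% of all genes), and both excitatory ones at Grm4 alone (16%). The largest differences were -40.6 points ± 7.38 at Grm3 and -30.2 ± 6.97 at Grm5 (limma adjusted p = 0.165 for both). No gene of 10863 passed there (0%), and 4 of the 7 had an unadjusted p below 0.05, against 21.9% of all genes.

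Bases that carried both marks in both libraries numbered 0 in excitatory and 1692 in inhibitory libraries at Grm3, 0 and 818 at Grm5, and 52 and 1650 at Grm8. Grm7 had 412 in excitatory and 738 in inhibitory libraries. Grm2 and Grm6 carried both marks in both types, with 1371 and 1088 bases in excitatory and 885 and 1011 in inhibitory libraries. Grm4 had none in either type: its H3K4me3 lay in 1904 bases at the upper end in excitatory libraries, against 359 in inhibitory ones, and in 0 bases at the lower end in excitatory libraries, against 626. These counts are of sorted populations, in which 2 marks on the same bases cannot be told apart from 2 kinds of cells with 1 mark each.

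**Figure D4:**
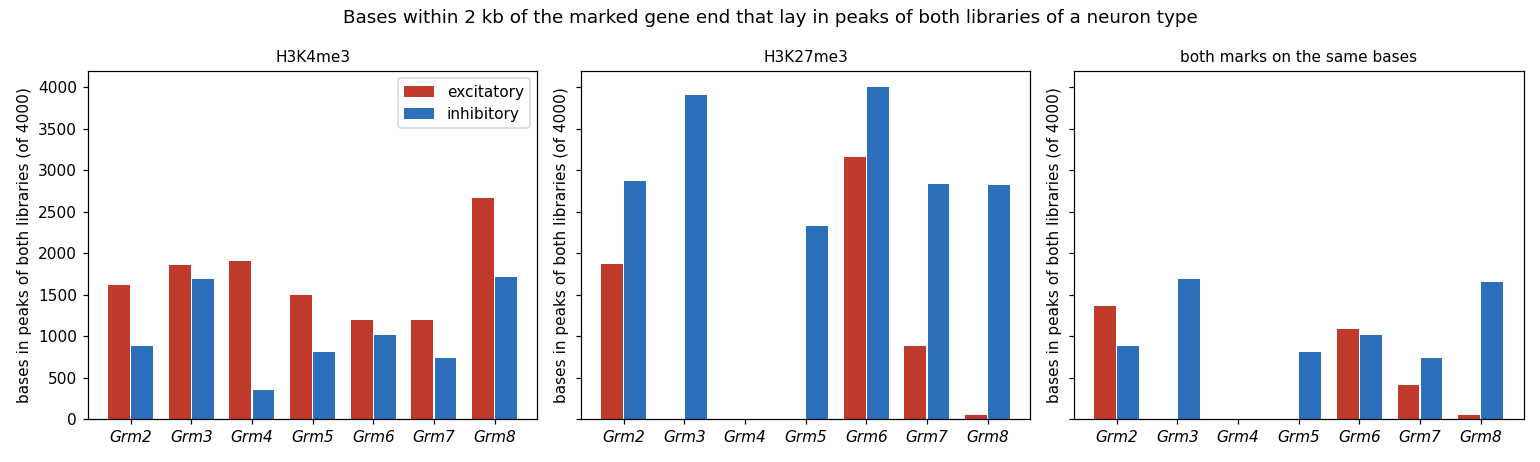
Bases (y axis, of 4000) within 2 kb of the marked end of each receptor gene (x axis) that lay in H3K4me3 peaks, in H3K27me3 peaks or in peaks of both marks (panels) in both libraries of a neuron type, with excitatory bars left of inhibitory ones. Bases with both marks stand at 0 in excitatory and 1692 in inhibitory libraries for Grm3 and at 1371 and 885 for Grm2.

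For each antibody, overlapping peaks from its 4 libraries were joined into regions. A region was called type-specific if both libraries of 1 type and neither of the other had a peak in it. For EGR1, 45 of the 161 regions in the 7 body windows were excitatory-specific (27.95%, against 20.95% of all regions) and 2 inhibitory-specific (1.24% against 2.41%). Grm7 held 14 of the 45, Grm8 10, Grm3 8, Grm5 7, Grm2 3, Grm4 2 and Grm6 1. H3K4me1 peaks of excitatory libraries touched 33 of the 45, or 73.3%, against 71.0% of all excitatory-specific EGR1 regions. H3K27me3 peaks of inhibitory libraries touched 13 of them, or 28.9%, against 21.2%, and H3K27ac peaks of inhibitory libraries 0, against 9.30%.

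For H3K4me1, 208 of 788 regions were excitatory-specific (26.4%, against 13.1% of all regions), 95 of them in Grm7 and 51 in Grm5, and 5 were inhibitory-specific (0.635%, against 2.84%). For H3K27me3, 15 of 626 regions were excitatory-specific (2.40%, against 3.97%), 11 of them in Grm4, and 121 were inhibitory-specific (19.3%, against 6.66%), 98 of them in Grm7. H3K27ac had 64 excitatory-specific regions of 659 (9.71%, against 5.73%) and 2 inhibitory-specific ones (0.303%, against 3.52%), both in Grm4. H3K4me3 had 2 excitatory-specific regions of 300 (0.667%, against 2.11%) and 10 inhibitory-specific ones (3.33%, against 3.30%), and 9 of the 10 lay in Grm4. With equal peak numbers the excitatory-specific EGR1 regions numbered 15, with 7 inhibitory-specific, the H3K4me1 regions 82 with 12, the H3K27ac regions 29 with 3, and the H3K27me3 regions 15 with 102. With peaks of a -log10 p of at least 3 alone these numbers were 47 with 2 for EGR1, 0 with 1 for H3K4me1, 13 with 2 for H3K27ac and 0 with 0 for H3K27me3. Shares over all regions were not computed under equal peak numbers or this cut. These counts therefore cannot show whether the shares of the receptor genes still differed from those of all regions.

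The body differences of Grm4 had the opposite sign to those of Grm3, Grm5 and Grm7 for H3K4me1, H3K27me3 and H3K27ac. For H3K4me3 its body had 5.15% and 8.90% in excitatory and 11.3% and 10.1% in inhibitory libraries (-3.74 points, limma adjusted p = 0.174). Its 2 inhibitory-specific EGR1 regions lay at chr17:27435066-27435522 and chr17:27501665-27502216, both inside the gene. The first overlapped an inhibitory-specific H3K4me3 region (chr17:27434943-27435667) and an inhibitory-specific H3K27ac region (chr17:27435200-27435665). Markers of cerebellar granule cells, in which Grm4 is prominent, also differed between the types. The summed H3K27me3 coverage of the 12 granule markers was 258.9 and 299.9 points in excitatory and 112.5 and 123.3 in inhibitory libraries, and 9 of 11 tested had a positive difference, with 0 past the threshold. Zic1, Zic2, Cbln3 and Neurod1 were at 0 in both inhibitory libraries but not in the excitatory ones, and Gabra6 was at 0 in all 4. The summed H3K4me3 end coverage of the 12 granule markers was 110.2 and 220.1 points in excitatory and 310.1 and 361.0 in inhibitory libraries. Of the 12, 5 fell (among them Gabra6 by 27.3 points), against 1.22% of all genes. For H3K4me1, 2 of 12 fell, against 1.53% of all genes. The part of granule cells in the Grm4 values was not tested. In sorted bulk nuclei, fewer cells of a type and a weaker mark per cell cannot be told apart.

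Genes of the receptors' signalling pathways are set here against the 2.53% of all genes called higher in excitatory neurons for H3K4me1. Of 19 Gi/o effector genes 3 rose: Adcy2, an adenylyl cyclase, by 16.1 points, and the G protein regulators Rgs4 and Rgs14 by 19.0 and 18.9. Of 15 Gq effector genes 2 rose, Prkca (protein kinase C alpha) by 13.6 points and Plcb2 (a phospholipase C beta) by 16.9. Of 17 scaffold and partner genes 1 rose, the postsynaptic density gene Dlgap2 by 18.0 points, and none of 9 genes of glutamate uptake and release or of the 9 genes of the retinal Grm6 cascade did. No gene of these lists fell for H3K4me1. The median H3K4me1 difference was 10.1 points for the 7 receptor genes, against -1.25 for Gi/o effectors, 0.0135 for Gq effectors and 3.40 for scaffolds.

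For H3K4me3 at gene ends, where 1.8% of all genes were called higher in excitatory and 1.22% in inhibitory neurons, Rgs4 and Rgs14 rose by 19.4 and 17.1 points, 2 of 18 Gi/o genes tested. Itpr3, an inositol trisphosphate receptor gene, and Dgkz, a diacylglycerol kinase gene, fell by 22.7 and 12.7 points, 2 of 15 Gq genes. Among 17 scaffold genes Shank2 rose by 18.4 points and Homer1, whose product links Grm5 protein to calcium stores, fell by 21.7. No listed gene passed for EGR1, H3K27ac or H3K27me3, for which limma called no gene at all in these windows. The scaffold genes had a median H3K27me3 difference of -5.16 points, with 11 of 14 tested members negative. As with the receptor genes, leaving out any 1 library left 0 genes called for H3K4me1 and for H3K4me3 (1338 to 3011 genes at an unadjusted p below 0.05 by limma for H3K4me3).

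The ionotropic glutamate receptor genes, the fast channels of the same transmitter, served for comparison. For H3K4me1, 2 of the 7 metabotropic genes rose, against 6 of 18 ionotropic ones and 2.53% of all genes, and the medians were 10.1 points for the metabotropic and 3.31 for the ionotropic genes. The 6 were Gria1 (by 19.7 points), Grik3 (by 15.54), Grik4 (by 14.3), Gria3, Grid1 and Grin3a. For H3K4me3, 0 of the 7 metabotropic genes passed, with a median of 6.75 points, against 2 that rose and 1 that fell of 18 ionotropic genes, with a median of 0.62. The H3K27me3 medians were -3.82 points for the metabotropic and 0.0382 for the ionotropic genes. Whether the families differ was not tested.

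Ranked among all protein-coding genes within each library, Grm6 stood high for H3K27me3 in all 4 libraries, between the percentiles 82.5 and 92.0. For H3K27ac it ranked at 13.3 and 9.02 in excitatory libraries and at 15.1 in inhibitory replicate 1. It had no peak in these, and the ranks are those shared by all uncovered genes. Its rank of 35.4 in inhibitory replicate 2 came from 1 peak of 387 bases. Grm4 stood at 83.4 and 83.9 for H3K27me3 in excitatory libraries and at 30.7 and 38.6 in inhibitory ones. Likeness to other genes was measured as the mean absolute difference of these percentile ranks over the 20 libraries. Nearest to Grm3 were Chrm3, a muscarinic receptor gene (5.89), Kcnq5, a potassium channel gene (6.20), and Lrrc8c (6.24), against a median of 28.4 over all genes. Grm4 was nearest to Plcb4, a phospholipase C beta gene (6.46), Ctbp2 (8.17) and Cadm3 (8.46). Nearest to Grm2 were Smim43, Ildr2 and Wnt4 (8.21 to 9.03), to Grm5 Rnf180, Aqr and Drp2 (7.87 to 7.90), and to Grm6 Zc3hav1, Prokr1 and Meiob (5.71 to 6.24). Grm7 was nearest to P3h2, Plekhh2 and Synm (8.01 to 8.34), and Grm8 to Gbe1, Frmd3 and Cpne8 (7.95 to 8.85). None of the 7 receptor genes was among the 3 nearest of another.

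**Figure D5:**
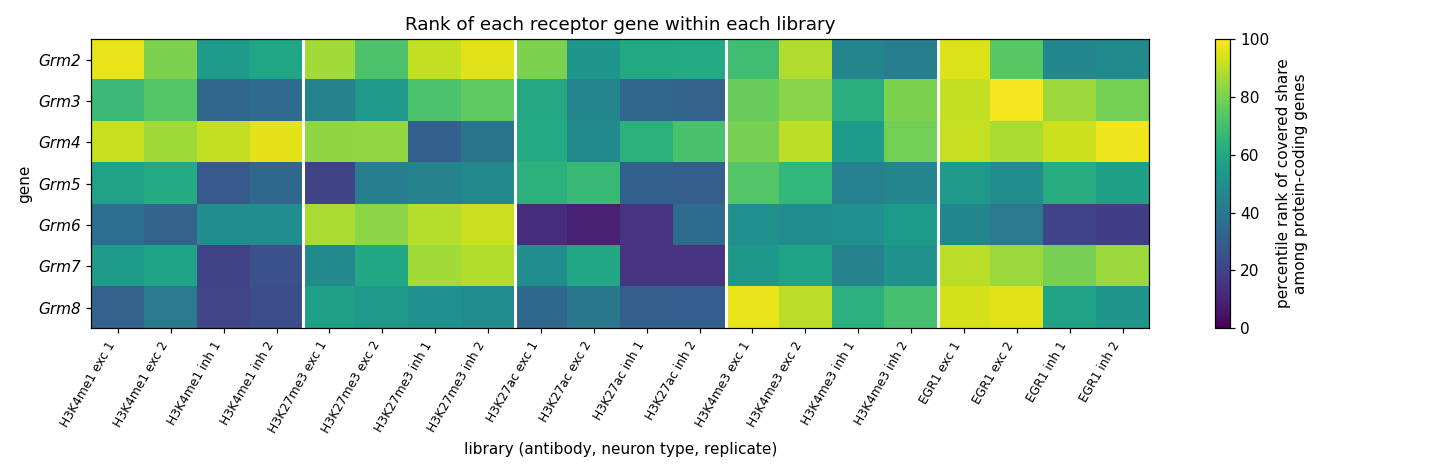
Percentile rank of the covered share of each receptor gene (y axis) among all protein-coding genes, by library (x axis, antibody, neuron type and replicate, with excitatory libraries left of inhibitory ones); the colour scale runs from 0 to 100. The H3K27me3 ranks of Grm4 stand at 83.4 and 83.9 in excitatory and at 30.7 and 38.6 in inhibitory libraries.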

How the data were processed

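CUT&RUN libraries from sorted nuclei were trimmed, aligned to mm10 and peak-called by the authors. Per the submitters' processing notes the tools were MACS2 2.2.5, SAMtools 1.12, Picard 2.25.0, Bowtie2 2.3.5, Trim Galore 0.5.0 and cutadapt 1.18. The sources used here give neither their settings nor the sorting gate nor any control library. A separate peak list was deposited for each library, with no pooling of replicates, in broad form for H3K27me3 and H3K4me1 and narrow form otherwise. Each deposited peak has a fold enrichment (a ratio), a -log10 p-value, a -log10 q-value and an integer score, all the authors' own and used here only to rank, filter or describe peaks. The deposited lists reach unadjusted p-values of up to 0.0999 (broad), 0.0498 (narrow histone) and 0.00491 (EGR1), so many histone peaks pass no false discovery rate. Read counts are absent from them, and coverage depends on the unknown depth. Groups came from the sample titles. Peak names in the EGR1 lists carry other replicate numbers than the titles, which were followed.

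From these lists the percent of each gene window in peaks was computed with Python 3.11.15 (numpy 2.4.6, pandas 2.3.3) at RefSeq positions of GRCm38.p6. It was quantile-normalized over the 4 libraries of an antibody and tested in R 4.3.3 with limma 3.58.1 (eBayes with trend), without a block, for genes covered in at least 2 libraries. The Benjamini-Hochberg threshold was 0.05, two-sided. An exact permutation test of 2 against 2 libraries cannot go below p = 0.333 and was not used. The gene table gives no strand, so both ends were used. Strands of Grm2, Grm3, Grm6, Grm7 and Grm8 came from the RefSeq promoter table, which was matched by symbol for 5 of the 7 genes. Grm4 and Grm5 were not matched.

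All 7 receptor genes are named. Of each pathway list up to 3 genes with the smallest p per antibody are named, and Gria3, Grid1 and Grin3a beyond these after their values were seen. The nearest 3 genes by rank are named for each receptor gene, without predicted gene models. Marker genes and regions were picked after their values were seen. The receptor genes and all lists were chosen with earlier results of these data known. Alternatives were the other window, no normalization, equal peak numbers, a -log10 p of at least 3, a log2 scale (pseudocount 1), no filter, the replicate number as a block, and each library left out. When a library is left out, the lone library of its type is assumed to vary like the other type.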

Additional observations from a re-analysis of the deposited data

How the results depend on the processing

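The number of genes called moved with the processing for every antibody, and the cause was not tested. For H3K4me1 (732 genes) it was 219 at the gene ends, 1211 without quantile normalization (1043 with more in excitatory and 168 with more in inhibitory neurons, with the median of all genes at 1.85 instead of -0.34 points), 288 on the log2 scale, 20 without the coverage filter, 0 with equal peak numbers, and 0 with peaks of a -log10 p of at least 3 (540 of 3724 genes at an unadjusted p below 0.05 by limma). For H3K4me3 (474) it was 111 over the bodies, 0 without quantile normalization (2344 at an unadjusted p below 0.05 by limma), 231 on the log2 scale and 0 without the filter (2562). EGR1 had 432 calls over the bodies and 53 without the filter, H3K27ac 16 without the filter, and H3K27me3 1078 on the log2 scale (566 higher in excitatory and 512 in inhibitory neurons). Without any 1 library the count was 0 to 0 for H3K4me1, H3K4me3, EGR1 and H3K27me3 and 0 to 1274 for H3K27ac, the highest without excitatory replicate 1.

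Whether same-numbered libraries were paired is not stated. The deviations of same-numbered libraries correlated between -0.0168 and 0.0595. With 2 libraries a group, these values cannot tell whether same-numbered libraries share an animal or a sort. Blocking on replicate number, limma called 1247 genes for H3K4me3, 1329 for H3K27ac and 0 for H3K4me1 (4773 at an unadjusted p below 0.05), EGR1 and H3K27me3. Under the block Grm2, Grm5 and Grm8 passed for H3K4me3 (adjusted p = 0.00455, 0.0211 and 0.0105) and Grm5 and Grm7 for H3K27ac (0.0180 and 0.00602), while Grm7 and Grm3 did not for H3K4me1 (0.0621 and 0.0666).

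Single receptor genes changed sign in the other window in 12 cases and kept it in 22. These were, for H3K4me3, Grm3 (-0.35 points), Grm4 (-3.74) and Grm6 (0.35), for EGR1 Grm5 (0.0523) and Grm8 (-0.0623), for H3K4me1 Grm3 (-6.67), Grm4 (8.38), Grm5 (-2.29), Grm7 (-11.4) and Grm8 (-20.3), and for H3K27me3 Grm6 (0.52) and Grm8 (-10.9). With equal peak numbers Grm6 changed sign for H3K4me3 (1.20) and H3K4me1 (0.58), without quantile normalization Grm4 (0.0375) and Grm5 (0.3125) for EGR1 and Grm8 for H3K27me3 (-1.07), and with a -log10 p of at least 3 Grm7 for H3K27me3 (0.683). Leaving out 1 library took Grm3 from -0.0917 to 5.69 points for H3K4me3 and Grm2 from -0.98 to 3.17 for H3K27ac. Grm5 passed for H3K4me1 without quantile normalization (13.3 points, adjusted p = 0.0349) and Grm2 for H3K4me3 with a -log10 p of at least 3 (13.1 points, adjusted p = 0.0238). With 2 libraries a group and unknown depth, a difference that did not pass cannot be read as absent.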
